A study of Sus scrofa with 8 samples.

Results

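The cells described here were PAX1+ cells of the pig somite and myotome that held no transcript of the cartilage matrix genes MATN4 and ACAN. They were selected by raw UMI counts (a UMI stands for 1 captured transcript): at least 1 UMI of PAX1 and 0 UMIs of MATN4, ACAN, MYF5, SOX10 and PAX6. MATN4 and ACAN encode matrilin-4 and aggrecan, and MYF5, SOX10 and PAX6 mark muscle precursors, neural crest with its glia, and neural cells. Of 90688 barcodes, 82394 passed the limits on quality, and 4836 of these (5.87%) met the rule. These 6 genes chose the cells, so their levels are a description and were not tested.

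The study sequenced 8 single-cell libraries of pig embryos at embryonic days (E) 16, 18, 21 and 28. ZZ denotes Tibetan pigs and DZ embryos of Duroc and Tibetan parents. Somites were taken at E16, E18 and E21 and the myotome at E28, so the last stage and its tissue cannot be told apart. Each library was a pool of 5 embryos from 1 sow and the only library of its stage and breed. The libraries of both breeds and of neighbouring stages therefore served as replicates, and p-values measure the spread between these 8 libraries.

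PAX1 encodes a paired-box transcription factor of the ventromedial somite. That region, the sclerotome, loses its epithelial form under hedgehog signals from the notochord and floor plate, and gives rise to vertebrae, ribs and intervertebral discs. PAX1 and its relative PAX9 act before overt cartilage forms, and PAX1 declines where chondrocytes mature but persists in mesenchyme of the disc. The syndetome, which forms tendon, and fibrous connective tissue also derive from sclerotome.

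The E16-ZZ library stood apart in quality, since 39.3% of its barcodes were removed, 4062 of them for a mitochondrial share over 10%, against 1.31% to 9.45% in the other 7. The E16 matrices were made with Cell Ranger 3.1.0 and the other 6 with 3.0.2. No pair of libraries shared more than 49 cell barcodes (0.453% of the smaller library). The selected cells had a median of 2900 (E28-DZ) to 6417 (E18-ZZ) UMIs, and their UMIs summed to between 1366183 (E28-ZZ) and 6952893 (E18-ZZ) per library.

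PAX1 (chromosome 17, 29421117 to 29436481, Sscrofa11.1) was a low-count gene in the cells it selected. Of the 4836 cells, 2644 (54.7%) held a single PAX1 UMI and 2192 held 2 or more, and the highest count was 15, in E21-ZZ. Summed over the selected cells of a library and scaled to CPM (counts per 1e6 UMIs, with TMM factors between libraries), PAX1 lay at 321, 299, 343 and 351 in the 4 libraries up to E18 and at 542, 335, 352 and 338 in the 4 later ones (by stage, ZZ before DZ). E21-ZZ was the highest and the other 7 libraries lay within 299 to 352.

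The share of barcodes that met the rule was 3.37% in E16-ZZ (95% exact binomial interval 2.93% to 3.84%) and 3.0% in E16-DZ (2.68% to 3.34%). It was 9.55% (8.99% to 10.1%) and 10.7% (10.1% to 11.3%) in E18-ZZ and E18-DZ. At E21 the ZZ library held 8.07% (7.58% to 8.58%) and the DZ library 4.80% (4.39% to 5.23%), and at E28 they held 3.0% (2.69% to 3.34%) and 3.82% (3.49% to 4.18%). These intervals cover counting error only. The shares were highest in both E18 libraries and the E16 libraries lay close to those of E28, so that the early libraries (both stages up to E18) overlapped with the late ones (E21 onwards). The early mean was 6.65% ± 4.03 and the late mean 4.92% ± 2.22 (SD, n = 4 libraries each), a difference of -1.73 percentage points (exact two-sided permutation test over 70 splits, p = 0.457, smallest possible 0.0286). With every cell thinned to 1500 UMIs the difference was 0.0478 points (exact permutation p = 1).

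The late libraries held more PAX1+ cells than these shares show, because the rule excluded many of them. Of all 7944 PAX1+ cells, 2860 held MATN4 or ACAN, 386 held MYF5, SOX10 or PAX6, and 138 of these held both kinds. The share of PAX1+ cells with MATN4 or ACAN was 3.95%, 1.5%, 5.46% and 4.35% in the early libraries (ZZ before DZ at each stage), and 47.4%, 57.4%, 64.9% and 52.6% in the late ones. PAX1, MATN4 and ACAN chose the cells, so this share is a description. Cells chosen without regard to PAX1 differed by stage too, but they include PAX1+ cells. Whether cells without PAX1 alone show the difference was not tested. Cells with MATN4 or ACAN, at least 5 COL2A1 UMIs and none of MYF5, SOX10 and PAX6, with or without PAX1, numbered 11 to 63 per early library. In the late libraries they numbered 604 to 993. All PAX1+ cells made up 7.35% ± 4.59 of early and 11.3% ± 3.44 of late barcodes (SD, n = 4 each). The difference was 3.92 points (exact two-sided permutation test over 70 splits, p = 0.229). The groups overlapped, with 10.8% and 11.8% at E18 above 8.80% and 8.54% at E28.

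**Figure D1:**
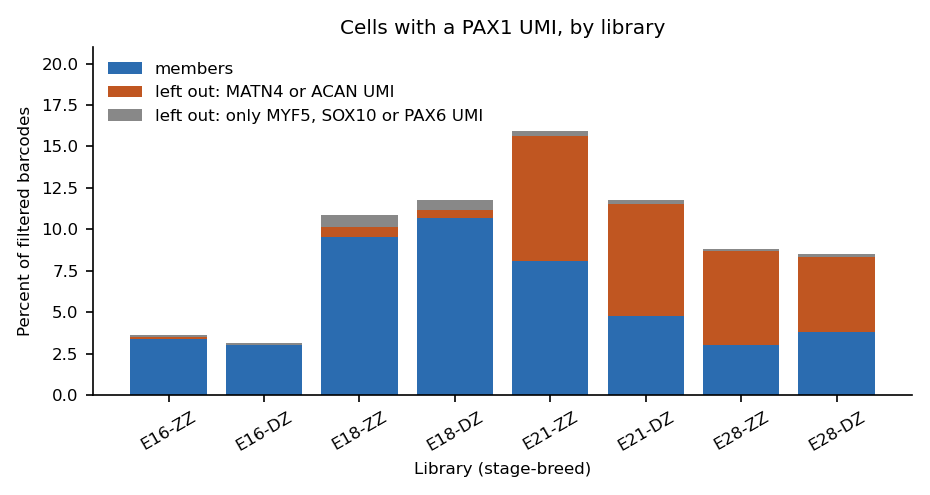
PAX1+ barcodes as a percent of the filtered barcodes of each library, divided into the selected cells ("members") and those excluded for MATN4 or ACAN and for the 3 other genes. In the 4 late libraries 47.4% to 64.9% of PAX1+ cells were excluded for MATN4 or ACAN, against 1.5% to 5.46% in the 4 early libraries.

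Cells that should lack PAX1 held it less often than all filtered barcodes of the same library, although some of these groups were small. Among cells with CDH5 and PECAM1 UMIs, which mark endothelium, 0% to 5.52% per library held a PAX1 UMI, against 3.15% to 15.9% of all filtered barcodes. The median depth of these endothelial cells was 8587 to 13951 UMIs, above the 3496 to 6338 of all barcodes. Of the cells with ELAVL3 and STMN2 UMIs, which mark neurons, 0% to 4.26% held PAX1, with 55 of 1290 in E21-ZZ. Among cells with MYOG and MYMK UMIs, which mark differentiating muscle, the share was 0% to 4.46% in 5 of the 6 libraries that held any and 2 of 21 cells (9.52%) in E18-DZ. How much of the PAX1 in the selected cells came from free RNA was not tested. Scrublet scores, taken to the doublet number that the loading would give, removed 19 to 93 selected cells per library.

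The selected cells carried sclerotome transcripts at E16 and E18 and far fewer of some of them later. MOXD1, a monooxygenase-like gene used here as a sclerotome marker (chromosome 1, 31282491 to 31367589), was detected in 60.8%, 63.8%, 78.0% and 70.2% of selected cells in the early libraries (ZZ before DZ at each stage, here and below). In the late libraries it was detected in 51.3%, 41.5%, 24.5% and 12.7%. In all other filtered barcodes the share was 11%, 12.0%, 28.4%, 32.4%, 33.7%, 28.3%, 23.7% and 26.3%, so that MOXD1 was more frequent in the selected cells through E21, about as frequent in E28-ZZ and less frequent in E28-DZ.

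STRA6, the receptor for retinol-binding protein (chromosome 7, 59317930 to 59347274), was detected in 32.5%, 23.9%, 37.5% and 36.8% of early and 12.4%, 14.3%, 3.07% and 3.87% of late selected cells. Its share in the other barcodes ranged from 4.73% to 10.8%, and exceeded that of the selected cells in both E28 libraries. PAX9 (chromosome 7, 63324709 to 63346326) was detected in 9.91%, 6.29%, 17.6%, 12.9%, 17.8%, 13.7%, 16.3% and 11.6% of selected cells and in at most 4.76% of the others, and was the more frequent in the selected cells in 8 of 8 libraries. With each cell thinned to 1500 UMIs, MOXD1 was found in 25.5% to 38.5% of early and 6.1% to 28.7% of late selected cells, and PAX9 in 1.7% to 4.4% and 5.3% to 8.6%.

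NKX3-2, which acts downstream of PAX1 in the mouse sclerotome, gave 6 UMIs in all filtered barcodes, and SCX, a tendon progenitor factor, gave 70. Their levels could not be compared at this depth. UNCX and TBX18 mark the posterior and anterior parts of each somite in other vertebrates. UNCX was found in 4.30% to 27.6% of selected cells per library and TBX18 in at most 23 cells of a library, and at most 1 cell of a library held both. The share of selected cells with none of MOXD1, STRA6, PAX9, UNCX and MEOX1 was 17.9%, 19.2%, 9.45% and 13% in the early libraries, 27.9% and 33.5% at E21 and 50.3% and 60% at E28. These shares were not thinned to equal depth, and the E28 cells had the lowest median UMIs (3523.5 in ZZ and 2900 in DZ). At E28 the markers disagreed. PAX9 was at 55.6 and 40.1 CPM (without TMM factors) against 7.23 and 9.35 in the other barcodes. STRA6 lay below the other barcodes in both E28 libraries and MOXD1 in E28-DZ. The name sclerotome was therefore uncertain there, and the cells are called selected PAX1+ cells throughout.

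**Figure D2:**
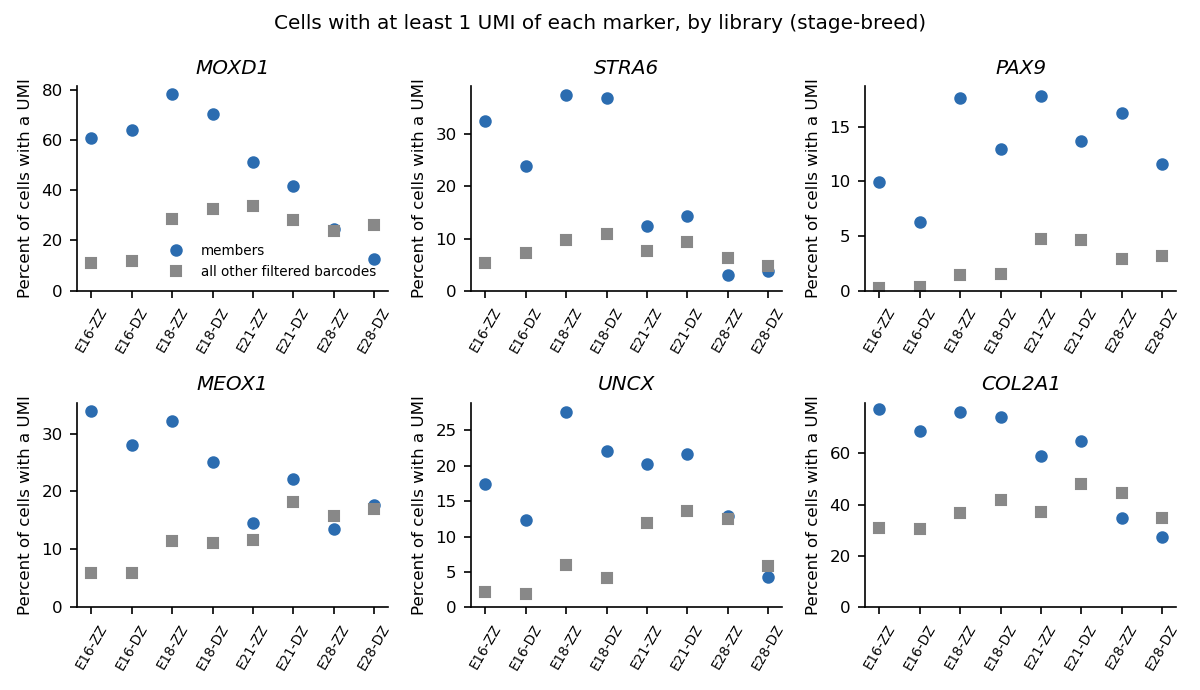
Percent of cells with at least 1 UMI of 6 marker genes in the selected cells ("members", blue circles) and in all other filtered barcodes (grey squares) of each library. MOXD1 falls from 78.0% in E18-ZZ to 12.7% in E28-DZ, and PAX9 stays above the other barcodes in all 8 libraries.

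Cells on either side of the limits are described without a test. Late selected cells with 1 PAX1 UMI had PAX9 in 9.33% to 14.2% and COL2A1, the main collagen of cartilage, in 26.1% to 62.9% per library. Those with 2 or more PAX1 UMIs had PAX9 in 15.4% to 24.7% and COL2A1 in 29.8% to 68.2%. Just outside the limit, late PAX1+ cells with a single UMI of MATN4 or ACAN had PAX9 in 7.58% to 28.9% and COL2A1 in 55.4% to 90.6%. In late cells with COL2A1 at 5 UMIs or more and with MATN4 or ACAN, PAX9 was found in 3.94% to 33.1% and SOX9 in 57.8% to 76.5%, against SOX9 in 20.9% to 31.5% of the selected cells.

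Beside all other barcodes, described without a test because PAX1 divided the cells, some mesenchymal genes were higher and others lower. The genes named first had to reach 20 CPM (unscaled here) in the selected cells of all 8 libraries, which genes high in these cells pass more easily. By the geometric mean of the ratios, MEOX2, a homeobox factor of somites, was at 3.64-fold (higher in 7 of 8 libraries), S1PR3, a sphingosine-1-phosphate receptor, at 2.70-fold (7 of 8), CYP1B1, an enzyme that can oxidise retinol, at 2.54-fold (8 of 8), and PTH1R, the receptor for parathyroid hormone-related protein, at 2.47-fold (8 of 8). The log2 ratio of MEOX2 was 3.58 and 2.96 at E16 and 0.29 and -0.17 at E28, and that of S1PR3 was 2.43 and 1.75 and then 0.69 and -0.02, so that these differences were small at E28. CXCL12, a chemokine of mesenchyme, was 2.33-fold and the collagen gene COL5A2 2.26-fold higher (both 8 of 8). The matrix genes POSTN (0.284-fold, higher in 0 of 8 libraries), DCN (0.334-fold, 0 of 8) and LUM (0.473-fold, 1 of 8) were lower. The embryonic globin genes HBZ and HBE1 were at 0.167-fold and 0.233-fold and the muscle actins ACTC1 and ACTA2 at 0.248-fold and 0.264-fold.

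PTCH1 and GLI1, the usual targets of hedgehog signalling, were higher in the selected cells than in the other barcodes of all 8 libraries, with mean log2 ratios of 0.87 ± 0.22 and 1.22 ± 0.32 (SD, n = 8). Against 3210 cells with PAX3, which marks dermomyotome, and none of PAX1, MYF5, SOX10 and PAX6, the mean log2 ratios were 1.35 for PTCH1, 1.79 for GLI1, 4.20 for PAX9 and 1.08 for COL9A1, a cartilage collagen, each higher in 8 of 8 libraries. MOXD1 and STRA6 were also higher in 8 of 8, by 0.89 ± 0.27 and 0.89 ± 0.52, but the PAX3 cells held them too, with MOXD1 at 91.0 to 219 CPM early, above the 24.4 to 112 of the other barcodes. MEOX1, a homeobox gene of the whole somite, was higher in only 2 of 8 (-0.31). Against the 3238 cells with COL2A1 at 5 UMIs or more and MATN4 or ACAN, which were numerous enough in 6 libraries, the log2 ratio of COL9A1 was -1.85 and that of SOX9, the master factor of cartilage, -1.18. PTCH1 (-0.60) and GLI1 (-0.22) were each higher in 1 of these 6 libraries, PAX9 in 3 of 6 (0.35) and MEOX1 in 6 of 6 (1.00). At E28 the cells with COL2A1 were above the selected cells in MOXD1 (131 and 96.4 against 114 and 48.9 CPM) and in STRA6 (29.3 and 35.5 against 7.32 and 11.3 CPM).

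The stages differed far more than the breeds within the selected cells. In a principal component analysis of their summed counts, the first component held 62.2% of the variance and ordered the libraries by stage, with E16 and E18 at negative and E21 and E28 at positive values. Of 9950 genes tested late against early by edgeR's quasi-likelihood test with breed as a covariate, 2880 (28.9%) had a Benjamini-Hochberg adjusted p under 0.05, of which 1487 (14.9%) were higher and 1393 (14%) lower in late libraries. The median log2 fold change over all tested genes was 0.02. These counts were 1537 without the E28 libraries and 1203 without the E16 libraries. The genes named below follow a rule given with the methods.

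Among the genes that rose most, NFIA, NFIB, CHODL and BCL11A were below 6 CPM in all 4 early libraries. NFIA, a nuclear factor I transcription factor, was at 0.765, 1.88, 1.74 and 1.35 CPM in the early libraries, and at 49.2, 43.4, 220 and 224 in the late ones. Every late library exceeded every early one, and the late level rose by 6.40 ± 0.76 on the log2 scale (± SE, edgeR adjusted p = 0.000641). Its relative NFIB rose by 5.54 ± 0.58 (edgeR adjusted p = 0.000416). CHODL, a membrane lectin, was at 2.30, 0, 0.870 and 1.01 CPM early and 53.1, 65.2, 194 and 404 late, a rise of 7.42 ± 0.87 (edgeR adjusted p = 0.000593). BCL11A, a zinc finger repressor, stood at 0 to 1.16 CPM early and at 57.8, 48.1, 42.2 and 57.9 late, and so was already at its late level at E21 (5.83 ± 0.31, edgeR adjusted p = 1.21e-05).

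FIBIN (log2 change 5.81), the ephrin receptor EPHA3 (5.43), the microfibril gene MFAP4 (5.38), the collagen prolyl hydroxylase subunit P4HA3 (5.49), LTBP3, which binds latent TGF-beta (4.80), and the collagen COL8A1 (4.59) followed, with edgeR adjusted p-values from 0.000593 to 0.0043. CXCL12 rose from 132.5 ± 46.1 to 612 ± 99.1 CPM (SD, n = 4 each, log2 change 2.19 ± 0.24, edgeR adjusted p = 0.000532), and was 759 in E21-ZZ, the highest library.

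The genes that fell most included keratins and other genes of epithelium, and PRTG and NR6A1. PRTG, protogenin, a receptor of early paraxial mesoderm, was at 156, 201, 174 and 198 CPM in the early libraries and at 23.1, 30.2, 6.23 and 6.12 in the late ones. NR6A1, an orphan receptor of the early embryo that takes part in trunk patterning, was at 46.7, 54.4, 46.4 and 45.9 and then at 4.85, 6.98, 5.54 and 3.89. Neither gene overlapped between the groups, with falls of 3.35 ± 0.39 and 3.16 ± 0.20 on the log2 scale (edgeR adjusted p = 0.000593 and 3.61e-05).

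KRT18, a keratin of simple epithelia, fell from 1340, 1133, 241 and 148 CPM to 3.23, 8.53, 1.39 and 0.556, and KRT8, KRT14 and CLDN6 changed by -6.99, -5.74 and -5.88 on the log2 scale (edgeR adjusted p = 0.000790 for KRT18 and 0.00118, 0.00164 and 0.00777 for the others). The junction genes DSP and PERP (-3.17 and -3.48) and the apolipoproteins APOE and APOA1 (-3.91 and -3.67) fell with them. MYH7, a myosin heavy chain also among the genes that fell most, was high in E16-DZ alone, at 129 CPM against at most 23.7 in the other early libraries. Without the E28 libraries the changes of MYH7, APOA1 and CLDN6 were -4.61, -3.43 and -5.25, with the calls lost (adjusted p = 0.0674, 0.0727 and 0.0595). APOA1 and CLDN6 also missed the threshold without the E16 libraries (-1.44 and -3.77, adjusted p = 0.0511 and 0.0599), and MYH7 and APOA1 in all PAX1+ cells (-2.16 and -2.33, adjusted p = 0.0718 and 0.0516).

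These keratins were not particular to the selected cells. KRT8 was found in 75.5%, 81.8%, 50.9% and 37.0% of early selected cells and in 87.0%, 88.5%, 68.1% and 54.1% of the other early barcodes, and in at most 3.07% and 7.13% late. The 12 epithelial markers summed to 3770, 3378, 765 and 490 CPM early and 3.89 to 39.9 late, and EPCAM was found in 14.2%, 12.3%, 1.83% and 0.724% of early and 0.215% to 0.613% of late selected cells. All 4 that could be tested fell, and 2 of 9 and 2 of 4 passed without the E28 and without the E16 libraries. At such low late levels a marker could pass the low-count filter mainly through the early libraries. The direction of these counts was thus largely set by the filter, and they are given as a description. The part of epithelial cells or their free RNA in these falls was not tested.

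**Figure D3:**
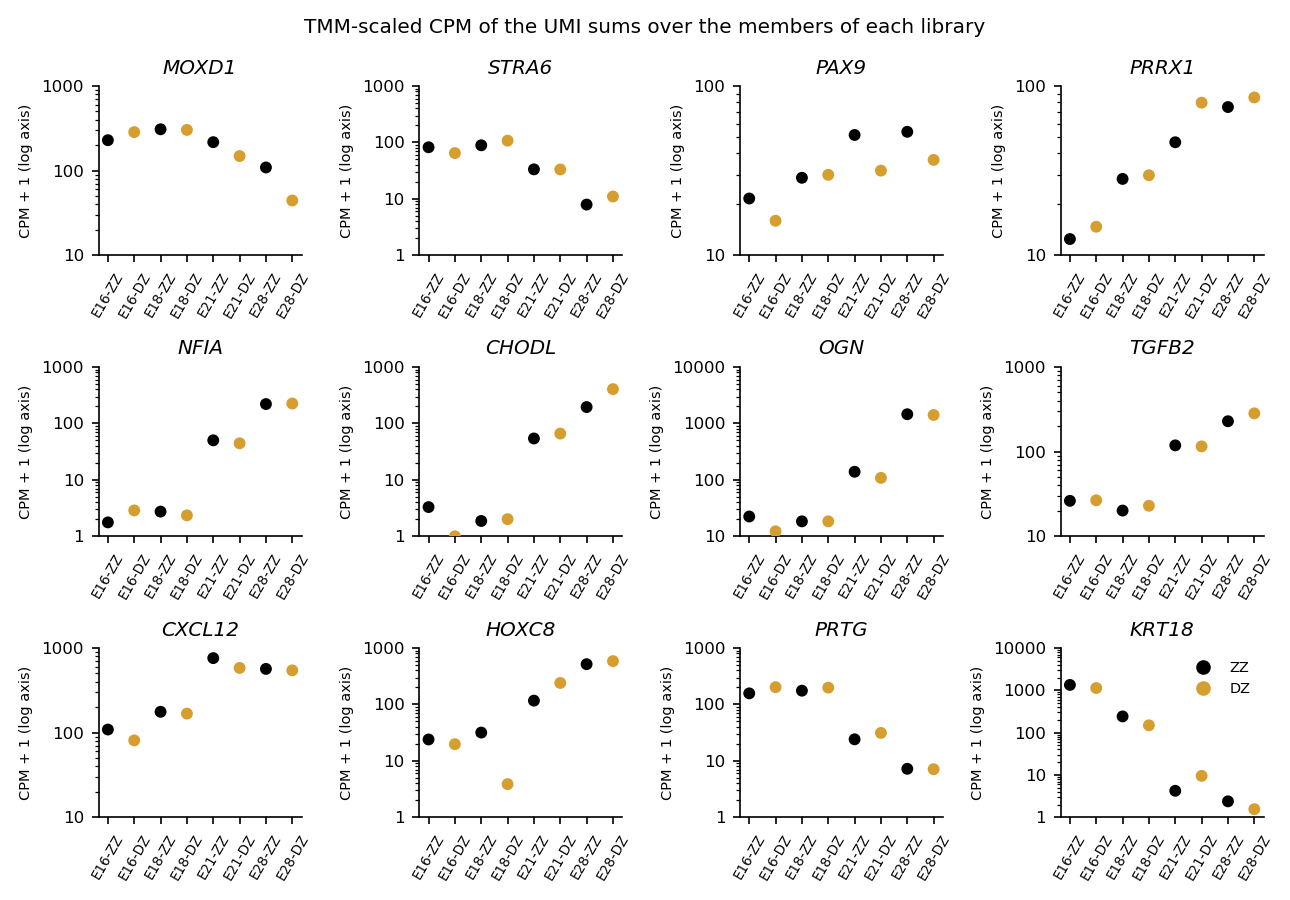
TMM-scaled CPM plus 1 of 12 genes, summed over the selected cells of each library, on log axes, with ZZ in black and DZ in orange. NFIA is below 2 CPM in the 4 early libraries and above 43 in the 4 late ones, and KRT18 falls from 1340 to 0.556.

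By gene list, in the BMP and TGF-beta list 15 of 26 tested genes rose and 3 fell (median log2 change 0.92), in the fibrous matrix list 16 of 24 rose and 1 fell (1.20), and in the HOX list 12 of 24 rose and 1 fell (1.18). In the cell division list none of 27 rose and 12 fell (-0.59). Over all genes 14.9% rose and 14% fell. Without the E28 libraries 12 of 27, 10 of 24 and 9 of 25 rose in the first 3 lists and 7 of 28 fell in the last, beside 7.59% and 6.74% of all genes. Without the E16 libraries the counts were 11 of 30, 9 of 25, 8 of 24 and 8 of 28, beside 6.04% and 4.95%.

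**Figure D4:**
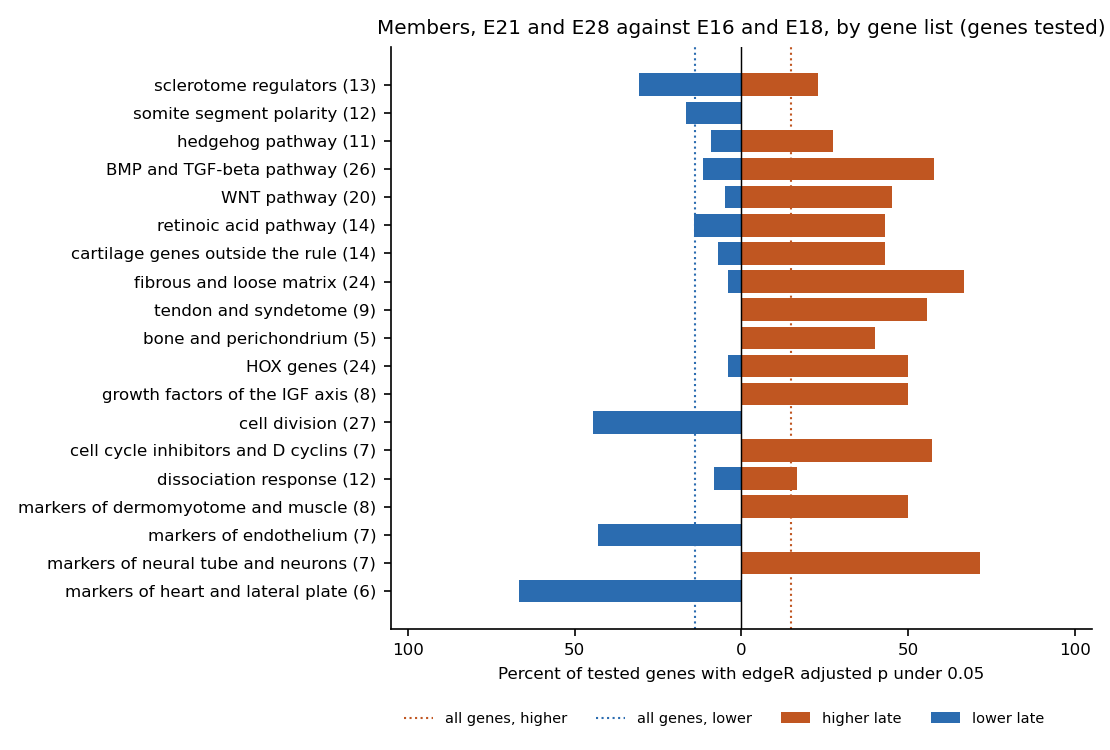
Percent of the tested genes of each list that were higher (right, orange) or lower (left, blue) in the selected cells of late against early libraries at an edgeR adjusted p under 0.05, for lists with at least 5 tested genes, whose number stands in brackets. Dotted lines mark the 14.9% and 14% over all tested genes, and the fibrous matrix list reaches 66.7% higher.

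Of 13 tested sclerotome regulators, 3 rose (23.1%) and 4 fell (30.8%), with a median of 0.01, beside 14.9% and 14% of all genes. Without the E28 and also without the E16 libraries, 1 of 15 rose and 2 fell. The share that rose was near those of all genes (7.59% and 6.04%), of which 6.74% and 4.95% fell. MOXD1 fell from 228, 284, 307 and 302 CPM to 216, 148, 108 and 43.4, by 1.15 ± 0.36 on the log2 scale (edgeR adjusted p = 0.0368). All 4 late libraries lay below the early ones, E21-ZZ by the smallest margin. STRA6 fell from 81.1, 63.8, 88.0 and 107 CPM to 32.3, 32.2, 6.92 and 10.0, by 1.96 ± 0.39 (edgeR adjusted p = 0.00563). The MOXD1 call was lost without the E28 libraries (-0.64, edgeR adjusted p = 0.0628), without the E16 libraries (-1.30, adjusted p = 0.104) and without E16-DZ, E18-ZZ, E18-DZ or E28-ZZ alone (-1.18 to -1.05), while STRA6 kept its call under these settings.

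PAX9 went the other way, from 20.7, 15.0, 27.7 and 28.9 CPM to 50.4, 30.6, 52.6 and 35.6, with the lowest late library just above the highest early one (log2 change 0.78 ± 0.22, edgeR adjusted p = 0.023). PRRX1, a homeobox factor of connective tissue mesenchyme, rose from 20.3 ± 8.94 to 70.7 ± 17.3 CPM (1.65 ± 0.28, edgeR adjusted p = 0.00294). SOX6, a partner of SOX9 in cartilage, rose from 15.8 ± 5.16 to 38.7 ± 10.7 (1.18 ± 0.26, edgeR adjusted p = 0.0088), a call lost without the E28 (0.88, adjusted p = 0.0645) or the E16 libraries (0.89, adjusted p = 0.0661).

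MEOX1 fell from 72.7 ± 13.3 to 46.0 ± 10.7 (-0.65 ± 0.19, edgeR adjusted p = 0.0256). Without the E28 libraries the changes of PAX9 and MEOX1 were 0.72 and -0.62, with the calls lost (adjusted p = 0.111 and 0.0843), and without the E16 libraries they were 0.52 and -0.46 (adjusted p = 0.13 and 0.145). Both calls were also lost without any 1 of E16-ZZ, E16-DZ, E18-ZZ, E21-ZZ and E28-ZZ (0.66 to 0.79 for PAX9 and -0.69 to -0.54 for MEOX1). UNCX was at 42.8, 38.8, 74.7 and 68.9 CPM early and 74.2, 72.5, 50.6 and 13.4 late, overlapping between the groups (edgeR adjusted p = 0.838). SOX9 was at 40.6, 25.6, 85.0 and 82.8 and then 100.1, 87.3, 76.2 and 67.9, low at E16 only (0.45, adjusted p = 0.316), and it rose in all PAX1+ cells (1.29, adjusted p = 0.0129).

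Of 12 tested genes of somite polarity 2 fell, a share near the 14% of all genes, and none rose. SPON1, the floor plate matrix protein F-spondin, fell from 15.8 ± 5.81 to 1.32 ± 1.77 CPM and NRP2, a semaphorin receptor, from 100.5 ± 21.6 to 36.8 ± 24.4 (log2 change -3.16 and -1.49, edgeR adjusted p = 0.00437 and 0.029). The NRP2 call was lost without the E16 libraries (-1.34, adjusted p = 0.16) and without E16-ZZ, E16-DZ, E18-DZ or E21-ZZ alone (-1.45 to -1.34). EPHA4 and EFNB1 overlapped between the groups.

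Cartilage genes differed between the selected cells and all PAX1+ cells, which include those with any of the 5 excluded genes. At E21 and E28 most of the cells added back held MATN4 or ACAN, themselves cartilage genes. The rule itself therefore favours a larger rise of cartilage genes in all PAX1+ cells, and the contrast is given as a description. Of the 14 tested cartilage genes outside the rule, 6 rose and 1 fell in the selected cells (median 0.79), beside 14.9% and 14% of all genes. Of 18 tested in all PAX1+ cells 16 rose and none fell (2.28), where 15.7% of all genes rose. COL2A1 was at 320, 319, 317 and 345 CPM in early and 289, 326, 156 and 130 in late selected cells, with E28 lowest (log2 change -0.52 ± 0.27, edgeR adjusted p = 0.165). It passed as a fall without E21-DZ (-0.83, adjusted p = 0.0374) and without the filter on low counts (-0.57, adjusted p = 0.00438). In all PAX1+ cells it rose by 0.99 ± 0.14 (edgeR adjusted p = 0.00142). COL9A1 was at 93.5 ± 15.5 and 119 ± 27.4 CPM in early and late selected cells (0.33, adjusted p = 0.139) and rose by 1.5 in all PAX1+ cells (adjusted p = 0.00179).

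COL11A1, a minor fibrillar collagen of cartilage, rose in the selected cells as well, from 22.2, 17.5, 45.2 and 53.4 CPM to 107, 108, 107 and 91.8 (log2 change 1.49 ± 0.29, edgeR adjusted p = 0.00534). CYTL1, a secreted chondrogenic factor, rose from 0 to 0.725 CPM to 19.2, 7.76, 21.5 and 16.1 (5.10 ± 0.48, edgeR adjusted p = 0.000266), and PRELP, a leucine-rich matrix protein, rose by 2.43 ± 0.43 (adjusted p = 0.00331). HAPLN1, which links aggrecan to hyaluronan, fell from 47.4, 60.6, 23.2 and 20.9 to 4.39, 3.49, 2.77 and 8.90 CPM (-2.91 ± 0.45, edgeR adjusted p = 0.00196). In all PAX1+ cells its change was -1.01 ± 0.47 (adjusted p = 0.128).

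**Figure D5:**
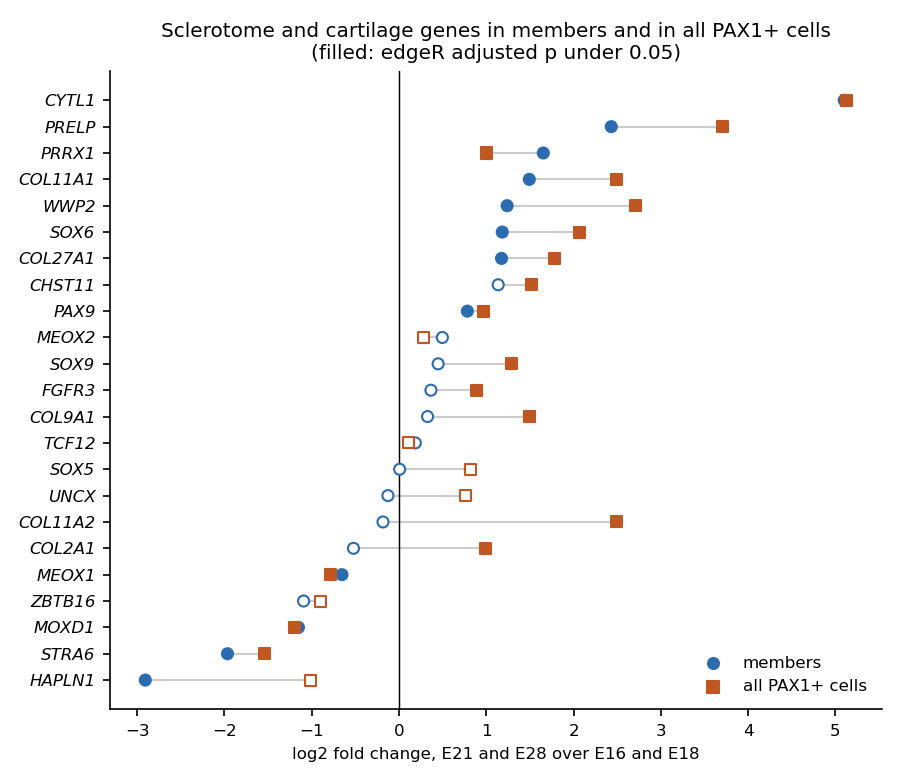
Log2 fold change, late against early, of sclerotome and cartilage genes outside the rule in the selected cells (blue circles, "members") and in all PAX1+ cells (orange squares), filled where the edgeR adjusted p was under 0.05. COL2A1 lies at -0.52 in the selected and 0.99 in all PAX1+ cells, and HAPLN1 at -2.91 and -1.01.

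In the hedgehog list 3 of 11 tested genes rose (27.3%) and 1 fell (9.09%, median 0.24), beside 14.9% and 14% of all genes. Of this list, 2 rose and none fell without the E28 and also without the E16 libraries. In these 2 settings 7.59% and 6.04% of all genes rose and 6.74% and 4.95% fell. BOC, a co-receptor for hedgehog ligands, rose from 27.1 ± 7.08 to 130 ± 73.2 CPM (log2 change 2.24 ± 0.38, edgeR adjusted p = 0.00274), and GLI3, the transcription factor that acts mainly as a repressor, from 56.5 ± 9.02 to 161 ± 59.2 (1.51 ± 0.26, edgeR adjusted p = 0.0029). PTCH1, receptor and target, fell from 53.6, 65.0, 75.7 and 78.4 to 52.5, 47.3, 29.1 and 22.8 CPM (-0.83 ± 0.25, edgeR adjusted p = 0.0333). E21-ZZ lay just under E16-ZZ, and the call was lost in all PAX1+ cells (-0.43, adjusted p = 0.214), without the E28 libraries (-0.48, adjusted p = 0.121), without the E16 libraries (-1.01, adjusted p = 0.0726) and without E16-DZ, E18-ZZ, E18-DZ, E28-ZZ or E28-DZ alone (-0.87 to -0.63). GLI1, the other usual target, went the other way without passing (0.36, edgeR adjusted p = 0.193), also in all PAX1+ cells (0.55, adjusted p = 0.0704). SMO, the signal transducer, was at 62.7 ± 6.22 and 74.8 ± 7.72 (adjusted p = 0.204).

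Of the BMP and TGF-beta ligands, TGFB2 rose from 25.2, 25.6, 19.1 and 22 CPM to 118, 114, 228 and 283 (log2 change 3.03 ± 0.32, edgeR adjusted p = 0.000416). BMP5 rose from 7.80 ± 4.68 to 56.5 ± 16.9 CPM (2.94 ± 0.25, edgeR adjusted p = 0.000231), BMP7 from 10.95 ± 2.36 to 51.0 ± 23.2 (2.20 ± 0.33, adjusted p = 0.00174) and TGFB3 from 1.88 ± 0.418 to 14.5 ± 8.47 (2.93 ± 0.48, adjusted p = 0.00254). TGFB1, named with SMAD7 after their values were seen, fell, from 6.51 ± 2.0 to 1.53 ± 1.04 CPM (-1.89 ± 0.47, adjusted p = 0.0146). Of the targets, SMAD7, an inhibitor of the pathway, rose from 4.68 ± 1.83 to 12.1 ± 4.10 (1.46 ± 0.39, adjusted p = 0.02). Both calls were lost without the E28 libraries (-1.54 and 1.31), that of TGFB1 also without the E16 libraries (-1.78) and that of SMAD7 without E18-ZZ, E18-DZ, E21-DZ or E28-ZZ alone (1.12 to 1.40). The targets ID1 and ID3 did not pass, with ID1 at 451 ± 253 and 497 ± 204 CPM.

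In the WNT list 9 of 20 tested genes rose and 1 fell (median 0.42), beside 14.9% and 14% of all genes. Secreted inhibitors were among those that rose. Either without the E28 or without the E16 libraries, 5 of 23 rose and 1 fell. Of all genes, 7.59% rose and 6.74% fell without the E28 libraries, and 6.04% and 4.95% without those of E16. DKK2 rose from 4.59, 2.50, 7.83 and 10.98 CPM to 41.1, 44.2, 201 and 106 (3.61 ± 0.57, edgeR adjusted p = 0.00227) and WIF1 from 2.68 ± 0.712 to 13.8 ± 3.20 (2.38 ± 0.31, adjusted p = 0.000947). SFRP2 was at 51.3, 35.6, 54.4 and 47.6 CPM early, 69.1 and 56.6 at E21 and 408 and 348 at E28, and its call (2.19 ± 0.59, adjusted p = 0.021) was lost without the E28 libraries (0.39, adjusted p = 0.139), without the E16 libraries (2.07, adjusted p = 0.155) and without E16-ZZ, E16-DZ, E18-ZZ, E28-ZZ or E28-DZ alone (1.5 to 2.22). The ligand WNT5B rose by 2.60 ± 0.38 (adjusted p = 0.00162).

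Of 14 retinoic acid genes 6 rose (42.9%, against 14.9% of all genes) and 2 fell (median 0.63), STRA6 being 1 of the latter. The share that fell (14.3%) was near the 14% of all genes. Leaving out the E28 libraries, 3 of 14 rose and 3 fell (median 0.29), beside 7.59% and 6.74% of all genes. Leaving out those of E16, 4 of 15 rose and 2 fell, beside 6.04% and 4.95%. ALDH1A2, the enzyme that makes retinoic acid in the somite, fell from 81.1, 112, 68.9 and 74.2 CPM to 12.7, 6.59, 7.62 and 26.2 (-2.66 ± 0.34, edgeR adjusted p = 0.000838). CRABP1, a binding protein for retinoic acid, was at 98.7, 176, 187 and 206 CPM early, peaked at 2040 and 2220 at E21 and stood at 1271 and 273 at E28 (3.11 ± 0.55, edgeR adjusted p = 0.00326). The receptor RARG rose from 9.07 ± 2.70 to 40.5 ± 6.15 (2.11 ± 0.23, adjusted p = 0.000562).

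Of 24 tested fibrous matrix genes 16 rose, beside 14.9% of all genes. COL12A1, a collagen on the surface of fibrils, rose from 6.12, 10.0, 7.69 and 13.2 CPM to 52.0, 71.0, 114 and 116 (3.19 ± 0.30, edgeR adjusted p = 0.000266), and COL6A1 from 13.9 ± 5.43 to 139 ± 95.8 (3.15 ± 0.54, adjusted p = 0.003). POSTN, periostin, was at 4.59, 6.25, 27.8 and 16.6 early, 11.8 and 28.7 at E21 and 328 and 297 at E28, so that the groups overlapped (3.35 ± 0.98, adjusted p = 0.0285). Without the E28 libraries its change was 0.29 (adjusted p = 0.79), and the POSTN call was also lost without the E16 libraries (2.88), with PAX1 at 2 UMIs or more (3.06), with at most 5% mitochondrial UMIs per cell (2.74) and without any 1 of the E16, E18 and E28 libraries (2.20 to 3.98). COL3A1, at 943 ± 438 and 1574 ± 540 CPM, did not pass (0.72, adjusted p = 0.132), but did without E18-DZ (1.16, adjusted p = 0.0278) and without the filter on low counts (0.65, adjusted p = 0.000664).

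OGN, osteoglycin, a small proteoglycan of connective tissue, was at 21.4, 11.3, 17.4 and 17.4 CPM early, 138 and 107 at E21, and 1455 and 1410 at E28 (5.52 ± 0.92, edgeR adjusted p = 0.00263). It was detected in 5.35% to 12.3% of early, 34.8% and 31.1% of E21 and 92.0% and 92.3% of E28 selected cells. The other barcodes held it in 66.8% and 70.6% at E28. Without the E16 libraries the changes of OGN, COL6A1, CRABP1 and IGFBP5 were 5.46, 2.84, 2.85 and 2.41, with the calls lost (adjusted p = 0.0508, 0.0513, 0.0583 and 0.0652).

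In the tendon list 5 of 9 tested genes rose and none fell (median 1.53), and in the bone list 2 of 5 rose. Over all genes 14.9% rose and 14% fell. Leaving out the E28 libraries, 4 of 10 tendon genes rose, 1 fell (median 0.43) and 1 of 5 bone genes rose. Beside these, 7.59% of all genes rose and 6.74% fell. TNMD, tenomodulin, rose from 2.79 ± 1.12 to 27.6 ± 10.7 CPM (3.09 ± 0.37, edgeR adjusted p = 0.000665) and MKX, the tendon factor Mohawk, from 1.12 ± 1.30 to 11.6 ± 3.89 (3.95 ± 0.59, adjusted p = 0.00164). THBS4, a tendon matrix protein, was at 36.0 and 219 CPM at E28 and at most 10.0 in the other 6 libraries. Its call (3.17 ± 0.96, adjusted p = 0.0327) was lost without the E28 libraries (0.55, adjusted p = 0.402), without the E16 libraries (3.14, adjusted p = 0.169) and without E16-ZZ, E16-DZ, E18-DZ, E28-ZZ or E28-DZ alone (1.36 to 3.15).

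The HOX genes that rose most were of paralogue groups from the middle of the clusters. HOXC8 was at 23.0, 18.8, 30.7 and 2.87 CPM early and 116, 239, 516 and 585 late (4.40 ± 0.70, edgeR adjusted p = 0.00228), and HOXC9, HOXA7 and HOXC6 rose by 3.62, 3.58 and 3.41 on the log2 scale (adjusted p = 0.00389, 0.000416 and 0.00127). HOXB9 was at 97.6 ± 33.0 and 62.8 ± 26.9 (-0.60, adjusted p = 0.236) and passed as a fall without the filter on low counts (-0.66, adjusted p = 0.00166). These genes report position along the body axis, and the axial levels in each dissection are not given in the sources used here, so stage and axial level cannot be told apart.

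Of the cell division genes 12 of 27 fell and 15 did not pass. The kinase PLK1 went from 157, 203, 169 and 178 CPM to 110, 81.8, 54.0 and 45.1 (-1.26 ± 0.25, edgeR adjusted p = 0.00564). MCM2 and MCM7, subunits of the replicative helicase, fell by 1.21 ± 0.14 and 1.19 ± 0.21 (adjusted p = 0.000593 and 0.00307). TOP2A did not pass, at 673 ± 166.7 and 542 ± 158 CPM. Of 7 inhibitors and D cyclins 4 rose, among them CCND1 from 99.6 ± 9.24 to 262 ± 46.7 (1.40 ± 0.16, adjusted p = 0.000581), CDKN1B (1.26, lost without the E28 libraries at 1.21, adjusted p = 0.0734) and CDKN1C (0.87, lost without the E16 libraries at 0.86, adjusted p = 0.0922). Of 8 genes of the IGF axis 4 rose, with IGFBP5 at 105.2 ± 32.5 and 436 ± 290 (2.07 ± 0.47, adjusted p = 0.0101) and GPC3, glypican-3, at 161 ± 21.7 and 339 ± 115 (1.07 ± 0.23, adjusted p = 0.00848). Over all genes 14.9% rose and 14% fell late against early. Of the inhibitors and D cyclins 2 of 7 rose without the E28 and 2 of 9 without the E16 libraries. Of the IGF axis 2 of 8 rose without the E28 libraries. In these settings 7.59% of all genes rose without the E28 and 6.04% without the E16 libraries. Without the E16 libraries none of 9 IGF genes passed, with GPC3 at 1.09 (adjusted p = 0.0718).

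Transcripts of other cell types moved with stage too. Of 7 tested neural markers 5 rose, and STMN2 was at 2.30, 14.4, 7.4 and 12.7 CPM early and 638, 289, 235 and 183 late (5.10 ± 0.51, edgeR adjusted p = 0.000353). It was found in 1.42% to 2.99% of early and 14.6% to 28.1% of late selected cells, below the 5.51% to 14% and 25.3% to 40.0% of the other barcodes in each library. The summed neural list was at 290 to 397 CPM early and 548 to 1390 late. Of 8 muscle markers 4 rose, with sums of 89.7 to 627 and 72.1 to 717 CPM. Without the E16 libraries 2 of 8 neural and 2 of 13 muscle markers rose, and without the E28 libraries 5 of 8 and 1 of 7. Of 7 endothelial markers 3 fell (203 to 256 against 56.8 to 144 CPM), and of 6 heart and lateral plate markers 4 fell, with HAND1 at 30.5 ± 22.9 and 0.349 ± 0.554 (-6.03, adjusted p = 0.0012). The heart list summed to 27.9 to 308 CPM early and 15.2 to 37.3 late. Leaving out the E28 libraries, 5 of 7 endothelial and 1 of 8 heart markers fell, and leaving out those of E16, 1 of 7 and 1 of 5. Of all genes, 14.9% rose and 14% fell, 7.59% and 6.74% without the E28 and 6.04% and 4.95% without the E16 libraries. A marker low in 1 group could pass the low-count filter mainly through the other, so these marker counts are given as a description. In another setting, cells with a UMI of EPCAM, CDH5, PECAM1, ELAVL3, TYROBP or ALAS2 were removed. Then 0 of 4 endothelial markers (median -0.39 against -1.46), 2 of 4 heart and 3 of 3 epithelial markers fell. The endothelial genes CDH5 and PECAM1 defined this removal, so it is no separate check of the endothelial list. In the same setting 5 of 6 neural and 4 of 7 muscle markers rose. Over all genes 15.1% rose and 13.8% fell there. With PAX1 at 2 UMIs or more, none of 3 muscle and none of 2 endothelial markers passed. There 3 of 4 neural markers rose, and 2 of 2 epithelial and 1 of 2 heart markers fell. Over all genes 11.3% rose and 10.2% fell in that setting.

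No tested crest or blood marker passed, and none of the notochord markers could be tested. ERBB3 made up most of the crest list at 808 to 1259 early and 607 to 1042 CPM late. Of 12 genes that respond to tissue dissociation 2 rose (16.7%) and 1 fell (8.33%) late against early, beside 14.9% and 14% of all genes. Without the E16 libraries 6 rose, where 6.04% of all genes rose, and 5 rose from E18 to E21 (41.7%, against 9.6% of all genes). Their sum was highest in E28-DZ at 6047 CPM against 2069 to 3950 in the other 7. The part of these cells and of dissociation in the stage differences was not tested.

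Between neighbouring stages, the largest number of genes changed from E18 to E21. From E16 to E18, 202 of 10452 genes (1.93%) passed, 59 higher (0.564%) and the rest lower (1.37%). From E18 to E21, 1868 (17.9%) passed, 1003 higher (9.6%) and 865 lower (8.28%). From E21 to E28, with the change of tissue, 628 (6.01%) passed, 352 higher (3.37%) and 276 lower (2.64%). By DESeq2 the counts of the 3 steps were 152, 1001 and 403. They moved further with 1 library left out, as given in the closing section.

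From E16 to E18 the genes that rose most were EBF2, an early B-cell factor of mesenchyme (log2 change 3.47, edgeR adjusted p = 0.0052), ZIC4 (2.54), FOXP2 (2.51), SEMA3A (2.04) and MEX3B (1.66). The CPM of EBF2 were 3.06 and 1.25 for E16, 26.1 and 19.4 for E18, then 96.6 and 124, and lastly 208 and 284 for E28, and it passed the test upwards in each of the 3 steps. SOX9 rose in this step (1.37, adjusted p = 0.004). Without E16-DZ the calls of EBF2 (2.83, adjusted p = 0.143) and SOX9 (1.13, adjusted p = 0.0871) were lost, and without E18-DZ that of SOX9 (1.25, adjusted p = 0.112). EPCAM (-4.75), VMO1 (-5.54), WFDC2 (-3.92), TNNT1 (-3.51) and CLDN6 (-3.20) fell most. When cells with markers of other types were removed, of which EPCAM is one, the last 4 lost their calls, as did ZIC4 (2.08, adjusted p = 0.111), SEMA3A (1.81, adjusted p = 0.0785) and MEX3B (1.40, adjusted p = 0.131). These 3 calls were also lost with PAX1 at 2 UMIs or more (0.98, 2.04 and 1.21), with the 5% mitochondrial limit (1.75, 2.38 and 1.35) and without E16-DZ (1.83, 1.20 and 1.47), E18-ZZ (2.69, 2.06 and 1.48) or E18-DZ (2.38, 2.02 and 1.85). The MEX3B call was lost as well with doublets removed (1.63), without E16-ZZ (1.86) and by DESeq2 (1.65). The CLDN6 call was lost by DESeq2 (adjusted p = 0.804) and without E16-ZZ, E16-DZ or E18-DZ alone (-3.33 to -2.68).

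From E18 to E21 the largest rises were CHODL (5.93), BCL11A (5.65), STMN2 (5.48), NFIA (4.86) and the homeobox gene IRX1 (4.84), and the largest falls were KRT18 (-5.17), KRT8 (-4.72), KRT14 (-3.82), CLDN6 (-3.09) and NR6A1 (-3.01). The CLDN6 call of this step was lost by DESeq2 (-3.28, adjusted p = 0.469), with PAX1 at 2 UMIs or more (-2.23) and without E18-ZZ (-2.47) or E21-ZZ (-1.64). From E21 to E28, POSTN (4.03), THBS4 (3.56), OGN (3.55) and TUBA4A (2.89) were among the genes that rose most, and REC8 (-4.27), KRT8 (-3.64), TUBB3 (-3.55), DSP (-3.04) and PLVAP (-2.93) fell most. The KRT8 call was lost with the 5% mitochondrial limit (-3.56), with doublets removed (-2.98), with cells holding markers of other types removed (-3.79) and without E16-ZZ, E16-DZ, E21-DZ, E28-ZZ or E28-DZ alone (-4.77 to -2.32), and the TUBB3 call by DESeq2 (-4.15) and with doublets removed (-3.95). The calls of THBS4 and TUBA4A were lost without E21-DZ (2.60) and without E28-DZ (2.18).

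From E21 to E28, 5 of 14 tested sclerotome regulators fell (35.7%, against 2.64% of all genes) and none rose. STRA6 (-1.92, edgeR adjusted p = 0.0028), MOXD1 (-1.32, adjusted p = 0.025) and UNCX (-1.29, adjusted p = 0.048) fell, as did COL2A1 (-1.11, adjusted p = 0.0018). In all PAX1+ cells the changes of STRA6, COL2A1 and UNCX in this step were -0.26, -0.24 and -0.20 (adjusted p = 0.45, 0.37 and 0.68). The MOXD1 call was lost by DESeq2 (-1.31, adjusted p = 0.112) and without E21-ZZ (-1.14), E21-DZ (-1.47) or E28-DZ (-0.81), and the UNCX call without any 1 of 7 libraries, E28-ZZ being the exception (-1.56 to -0.59). Both were lost with PAX1 at 2 UMIs or more (-1.05 and -1.11).

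Between the breeds 1 of 10452 genes (0.00957%) passed with stage as a block, and 614 had an unadjusted p under 0.05. It was CYP2J34, a cytochrome P450 of a family with closely related copies, so that reads may be shared among them. It was named after its values were seen. CYP2J34 was at 6.12, 8.56, 2.54 and 3.46 CPM in ZZ and 25.6, 32.9, 13.96 and 16.1 in DZ at E16, E18, E21 and E28, higher in DZ at all 4 stages (log2 difference 2.10 ± 0.20, edgeR adjusted p = 0.00561). Without E18-ZZ or E18-DZ the difference was 2.25 in both cases, with the call lost (adjusted p = 0.119 and 0.193). DESeq2 called 3 genes, CYP2J34, GPX1 (-0.60) and KIF22 (-0.84), of which the last 2 were lower in DZ at all 4 stages, with edgeR adjusted p-values of 0.128 and 0.095. The late against early change differed between breeds for none of 10452 genes by edgeR (124 at an unadjusted p under 0.05).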

How the data were processed

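Cells of 8 libraries were profiled with 10x Chromium 3′ v3 chemistry. The authors made UMI count matrices with Cell Ranger (3.1.0 for E16, 3.0.2 for the other 6 libraries) on Sscrofa11.1 with Ensembl 98, and these raw counts were deposited per gene and barcode. The pig samples were grouped by stage and breed from their labels. Barcodes with at least 200 genes, at most 30000 UMIs and at most 10% of UMIs on 13 mitochondrial genes were kept. Members and gene lists were chosen with earlier results of these data known. Of 21301 genes, 14846 were named in the files, 680 were named from a separate table of gene names and 5775 had no name.

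Counts were summed over the selected cells of each library (at least 20 cells) and tested with edgeR 4.0.16 (R 4.3.3), TMM scaling, quasi-likelihood test and Benjamini-Hochberg adjustment at 0.05. Every adjusted p is from edgeR unless DESeq2 1.42.0 is named. The late against early fit had breed as a covariate, and 1 fit of stage and breed gave the steps and the breed difference. Genes were named by this rule: markers, the 12 genes in each direction with the largest late against early changes past the threshold at a mean of at least 20 CPM, 5 in each direction for each step and for breed, the 15 highest ratios to other barcodes, and from each list up to 4 with the largest changes past the threshold and up to 2 of highest level not past it. Ratios to other barcodes used unscaled CPM with a pseudocount of 1. Doublets were removed in an alternative at 0.8% per 1000 barcodes by Scrublet rank (scanpy 1.11.5), because its automatic threshold marked at most 320 barcodes of a library. The share of cells was compared by an exact permutation test (scipy 1.17.1). The depth per library is given with the results, and intervals cover counting error only. Other settings are listed in the closing section. Some genes that this rule names are not reported here.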

Additional observations from a re-analysis of the deposited data

Results flagged for a closer look

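Of 200 groups of 4 libraries examined, 11 held a library far from the other 3 (Dixon's test at the 95% level, which chance alone passes in about 1 group in 20). Among early libraries these were E18-DZ for COL2A1 (345 CPM, highest), E16-ZZ for MKX (3.06 CPM, highest) and E16-DZ for MYH7 (129 CPM), NR6A1 (54.4 CPM) and WIF1 (3.75 CPM), each the highest. Among late libraries they were E28-DZ for COL11A1 (91.8 CPM, lowest), THBS4 (219 CPM, highest) and IRX1 (13.9 CPM, lowest), E21-ZZ for MCM2 (67.0 CPM, highest), E21-DZ for CLDN6 (3.1 CPM, highest) and E28-ZZ for APOE (26.3 CPM, highest).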

How the results depend on the processing

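Stage and breed stood as terms in the fits, and no other pairing could be fitted, since the labels carry no replicate numbers. The late against early count of genes was 1755 with PAX1 at 2 UMIs or more, 1537 without the E28 libraries and 1203 without the E16 libraries, and 1924 to 2992 with 1 library left out. The E18 against E16 count was 676 without a filter on low counts, 125 with PAX1 at 2 UMIs or more, 78 with a mitochondrial limit of 5% and 73 with cells holding markers of other types removed, and 18 to 305 with 1 library left out (28 without E16-DZ, 88 without E16-ZZ, 64 without E18-ZZ, 18 without E18-DZ, 305 without E28-DZ). The E21 against E18 count was 1001 by DESeq2 and 476 to 2224 (517 without E18-ZZ, 476 without E18-DZ, 1017 without E21-ZZ, 812 without E21-DZ). The E28 against E21 count was 403 by DESeq2, 1424 without the filter, 323 with PAX1 at 2 UMIs or more, 1189 in all PAX1+ cells, and 209 to 607 (370 without E18-ZZ, 340 without E18-DZ, 399 without E21-ZZ, 221 without E21-DZ, 209 without E28-DZ). The breed count was 3 by DESeq2, 1.3e2 without the filter (86 higher and 47 lower), 12 with PAX1 at 2 UMIs or more, 4 with the 5% limit, 2 in all PAX1+ cells, and 0 to 14 (0 without E18-ZZ or E18-DZ, 14 without E16-ZZ, 5 without E16-DZ). The share of selected cells changed by -2.94 to -0.384 points with 1 library left out. It changed by -5.19 points without the E16 libraries (exact permutation p = 0.0667, the smallest possible there) and by -0.22 without the E28 libraries. The direction turned with thinning (0.0478) and for all PAX1+ cells (3.92). The late change of UNCX ranged from -0.57 (without E21-DZ) to 0.19 with 1 library left out. The late change turned direction for UNCX in all PAX1+ cells (0.76), without E18-DZ (0.11), without E28-DZ (0.19) and without the E28 libraries (0.31), for COL2A1 in all PAX1+ cells (0.99) and for SOX9 without the E16 libraries (-0.030). The fit on all PAX1+ cells was chosen after seeing the data. The causes were not tested, and genes at a few UMIs per library limit the precision.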
